A study of Mus musculus with 6 samples.

Results

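The genes described here are those of G-protein-coupled receptors and of RGS proteins (regulators of G-protein signalling) in cultured mouse CD8+ T cells. They were chosen by symbol alone: numbered Gpr and P2ry genes, the S1pr, Lpar and Ptger families, adenosine, leukotriene B4, free fatty acid, amine and protease-activated receptors, adhesion receptors (Adgr) and numbered Rgs genes, with chemokine receptors left out. Of 11922 genes in the deposited counts, 68 met this rule, 56 with receptor or Gpr names and 12 with Rgs names. The family was proposed with the results of this treatment contrast known, so counts of changed members are descriptions and support nothing further. Splenic CD8+ T cells of C57BL6/J mice were stimulated for 72 hours with beads carrying anti-CD3 and anti-CD28, then expanded for a further 4 days. All cultures received recombinant human IL-2 at 100 units per ml for the whole time, together with water as vehicle or with AOA (aminoxyacetic acid, an inhibitor of enzymes that need vitamin B6 as cofactor) at 0.25 mM. RNA was sequenced in bulk on day 7 from 3 cultures per group, and the same 3 donor mice supplied both groups, with 1 culture each. The cells were grown in vitro and came from a column sort, and the fit without the mouse number measures the spread between these 3 cultures.

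A receptor with 7 membrane spans passes the binding of its ligand to a heterotrimeric G protein, whose alpha subunit then releases its GDP and takes up GTP. RGS proteins speed the hydrolysis of that GTP by alpha subunits and so shorten the signal, while receptor kinases and arrestins switch off the receptor itself. In T cells such receptors read lipids, nucleotides, prostaglandins and protons in the surroundings, and they steer migration, retention in tissue and the strength of the response.

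Total counts ranged from 12881962 to 18934869 in vehicle libraries and from 18696114 to 21997078 in AOA libraries. Vehicle replicate 2 stood apart from its group on the second principal component, at -44.2 against 21.9 and 19.4. Markers of the sorted cells were present in every library, and 7 of the 8 T cell and CD8 markers were measured. They summed to 3438 to 4369 CPM (counts scaled to library size with TMM factors) with vehicle and to 4369 to 5042 CPM with AOA. The list was split: Cd8a (log2 fold change of AOA over vehicle 1.03) and Cd8b1 (0.64) were called higher, Cd2 (-0.61) and Cd5 (-0.88) lower. Cd3d, Cd3e and Cd3g were not called. Markers of other cells also moved. The 4 CD4 T cell markers summed to 158 to 210 CPM with vehicle and 33.0 to 54.3 CPM with AOA, with Cd4 itself at 66.4, 63.1 and 119 against 5.65, 11.6 and 12.2 CPM, while Foxp3 of the same list was not called, at 11, 15.9 and 13 against 15.5, 17.5 and 18.3 CPM. Myeloid markers, of which 4 of 8 were measured, summed to 44.3 to 64.4 against 0.965 to 4.18 CPM, with Itgam, which activated CD8+ T cells can also carry, at 42.8, 52.9 and 40.5 against 0.598, 2.11 and 0.908 CPM. Lyz2, their defining gene, was at 0, 0.317 and 0 against 0.276, 1.16 and 0.101 CPM, Fcgr3 at 3.73, 10.2 and 3.58 against 0.0919, 0.846 and 0.151 CPM, and Cd14 at 1.03, 1.01 and 0.271 against 0, 0.0529 and 0 CPM. NK markers, 2 of 4 measured, summed to 20.1 to 114 against 3.53 to 11.6 CPM, with Ncr1 at 0 in vehicle replicates 1 and 3. The 1 measured erythroid and platelet marker of 7, Itga2b, lay at 2.03 to 4.84 against 0.151 to 0.581 CPM, while B cell markers, 5 of 7 measured, summed to 13.9 to 18.4 against 23.1 to 30.9 CPM. Their part in the receptor values below was not tested, and in bulk RNA fewer cells of a type and less RNA per cell cannot be told apart.

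Receptor and RGS transcripts as a whole were less abundant with AOA. Together the 68 genes took 0.498, 0.406 and 0.511% of all counts with vehicle, against 0.271, 0.280 and 0.273% with AOA. Their summed level was 4754 ± 727 CPM with vehicle and 2734 ± 36.7 CPM with AOA (SD, n = 3), and the groups did not overlap. The 4 genes P2ry10, S1pr1, Gpr132 and Adgre5 made up 62.6% of this difference. The other 64 still summed to 2809 ± 111 against 2055 ± 54.0 CPM.

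Of the 68 genes 66 passed the low-count filter and were tested. In the edgeR fit across all 11759 tested genes, 43 of the 66 had an adjusted p under 0.05 and are called changed (65.2%), where 53.0% of all tested genes were called. Of these, 35 were lower with AOA and 8 higher, where 26.8% of all genes were called lower and 26.2% higher. The median log2 fold change (AOA over vehicle) was -0.50 over the 66 and -0.02 over all tested genes. A log2 fold change of at least 1 in size, in addition to the adjusted p, left 26 lower and 7 higher, where 26.2% of all genes met that rule. The libraries of the groups did not overlap for 44 of the 66, as for 62.1% of all genes. Among the 35 lowered genes the median change was 3.20-fold, and 13 were lowered at least 4-fold. Among the 8 raised genes the median was 3.12-fold, and 2, P2ry1 and Rgs18, were raised at least 4-fold. RGS genes were almost all called, 9 lower and 2 higher of 12, and their median log2 fold change was -1.63. Of the 54 tested receptor and Gpr-named genes, 26 were lower and 6 higher (median -0.41). Leaving out vehicle replicate 2 raised the number of receptor genes called higher from 6 to 10. In what follows, library values are CPM in the order of replicates 1, 2 and 3, and the error of a log2 fold change is the standard error of the fit.

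**Figure D1:**
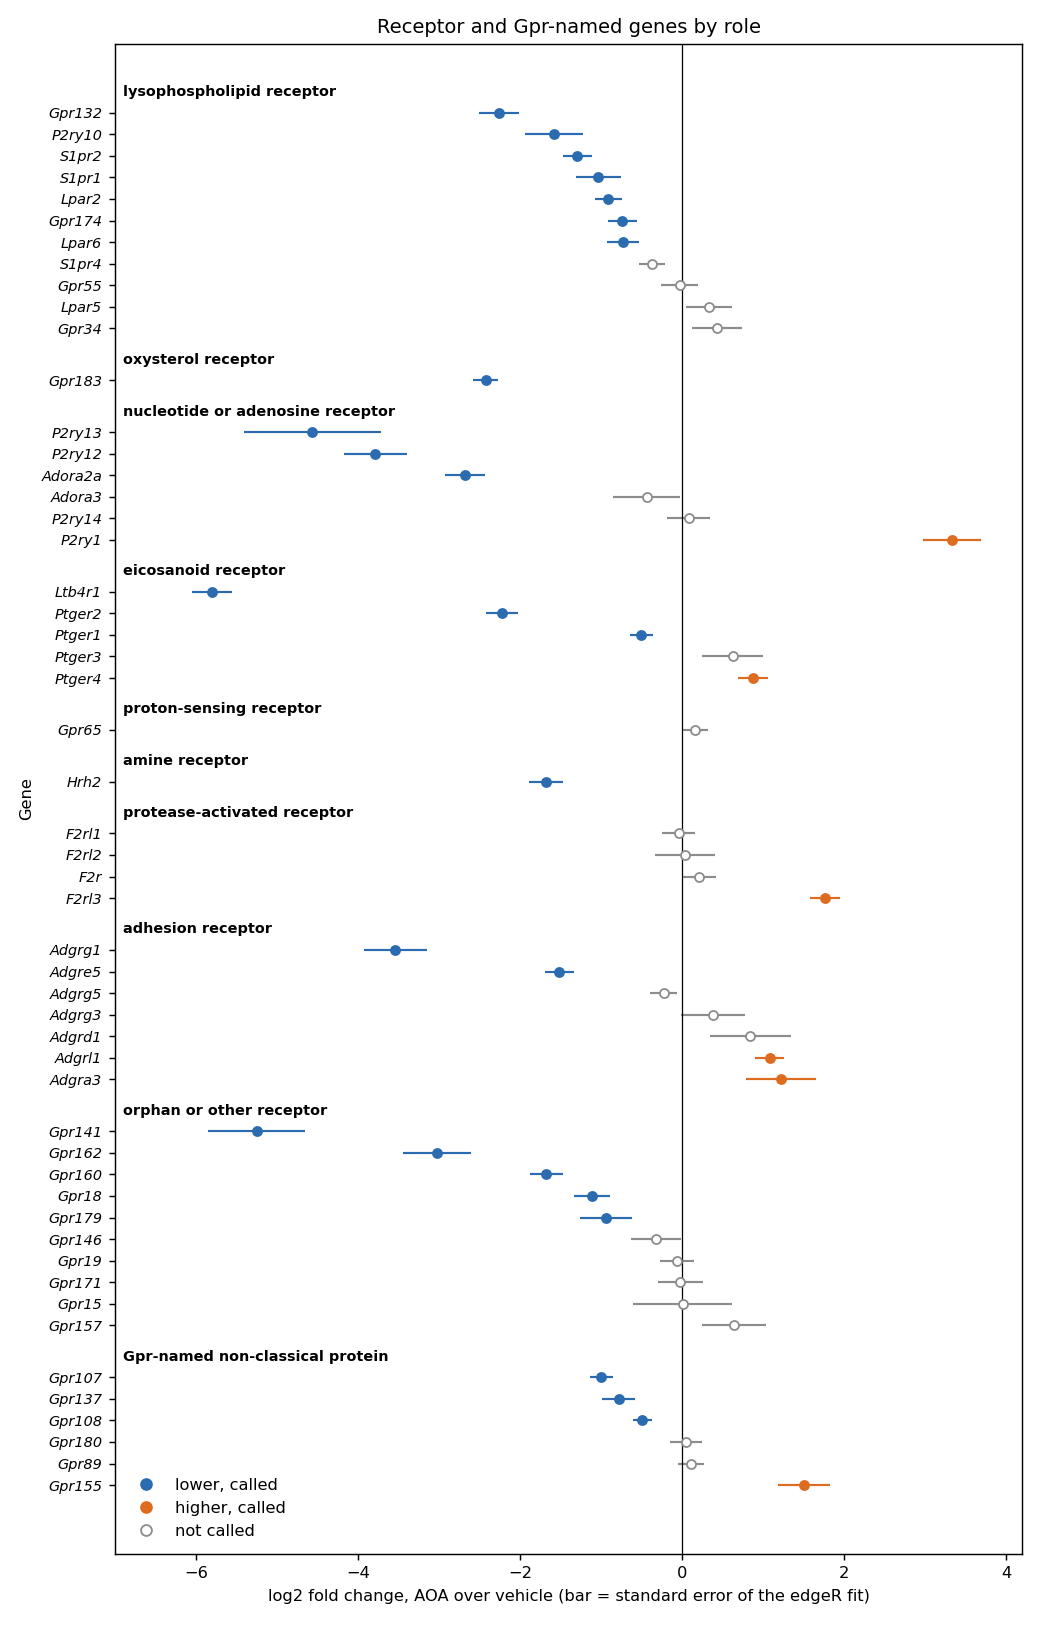
Log2 fold change of AOA over vehicle (x axis) for 52 of the 54 tested receptor and Gpr-named genes (y axis, grouped by role), with bars for the standard error of the edgeR fit and filled points for called genes. Called points lie to the left of zero for 25 genes and to the right for 6, and Ltb4r1 at -5.80 is the farthest to the left.

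Promoter sequences of 4 members are shown first, chosen after their values were seen as examples of a change in either direction. Ltb4r1 and Gpr183 were lowered, P2ry1 and F2rl3 raised, and for each the vehicle and AOA libraries did not overlap. Each sequence runs 5′ to 3′ on the strand of the gene from 250 bases before to 50 bases after the annotated start (RefSeq, GRCm38.p6). Capitals mark CCACCC or its reverse complement GGGTGG, the box that KLF factors can bind, and GGAAAA or TTTTCC, the core that NFAT can bind, both searched on either strand.
Ltb4r1 promoter, chr14:55765712-55766011, plus strand: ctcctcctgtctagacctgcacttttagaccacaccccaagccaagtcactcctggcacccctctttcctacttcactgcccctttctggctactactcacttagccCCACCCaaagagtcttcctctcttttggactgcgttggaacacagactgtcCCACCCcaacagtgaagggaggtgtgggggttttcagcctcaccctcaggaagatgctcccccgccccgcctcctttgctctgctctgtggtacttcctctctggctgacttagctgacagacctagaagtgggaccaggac
Gpr183 promoter, chr14:121965144-121965443, minus strand: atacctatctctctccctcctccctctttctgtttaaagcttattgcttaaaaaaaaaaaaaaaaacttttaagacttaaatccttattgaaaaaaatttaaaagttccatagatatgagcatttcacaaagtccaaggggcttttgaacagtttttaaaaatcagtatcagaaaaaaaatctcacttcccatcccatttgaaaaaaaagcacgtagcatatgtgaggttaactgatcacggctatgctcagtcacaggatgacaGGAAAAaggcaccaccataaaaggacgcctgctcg
P2ry1 promoter, chr3:61002535-61002834, plus strand: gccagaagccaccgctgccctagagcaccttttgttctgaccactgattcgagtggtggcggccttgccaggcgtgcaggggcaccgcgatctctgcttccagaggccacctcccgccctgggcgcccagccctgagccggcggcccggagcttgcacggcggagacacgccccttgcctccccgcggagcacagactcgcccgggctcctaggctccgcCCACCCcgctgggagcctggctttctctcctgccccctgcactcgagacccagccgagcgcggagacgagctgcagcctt
F2rl3 promoter, chr8:72761409-72761708, plus strand: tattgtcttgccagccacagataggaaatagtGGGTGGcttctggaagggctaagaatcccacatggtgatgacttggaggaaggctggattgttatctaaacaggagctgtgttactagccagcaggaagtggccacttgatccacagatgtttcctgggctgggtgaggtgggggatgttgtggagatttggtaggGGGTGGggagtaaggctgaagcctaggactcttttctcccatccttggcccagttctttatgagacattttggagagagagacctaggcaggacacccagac

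The promoter table held 73 promoters for 52 of the 68 genes, among 32851 promoters of all genes. CCACCC was present in 33 of the 73 (45.2%) and in 31.5% of all promoters. All 8 promoters of the 7 raised genes with an entry held it, as did 14 of 35 promoters of 26 lowered genes. GGAAAA was present in 13 of the 73 (17.8%) against 23.4% of all promoters. The AP-1 letters TGANTCA occurred in 15.1% against 7.81%, and the cAMP response element TGACGTCA, which shares no full match with it, in 1 promoter, that of S1pr2, against 1.79% of all. These are matches of letters in a 300-base window, and binding was not measured.

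Lysophospholipid receptors read sphingosine 1-phosphate, lysophosphatidic acid and lysophosphatidylserine, lipids that guide lymphocytes between blood and tissue. None of the 11 tested was called higher and 7 were called lower, which makes 63.6% called beside 53.0% of all tested genes. Gpr132, a receptor linked to lysophospholipids and protons, was at 449, 228 and 453 CPM with vehicle and at 80.1, 79.3 and 76.8 CPM with AOA. The groups were far apart even for vehicle replicate 2, the lowest of its group, and the log2 fold change was -2.26 ± 0.25 (adjusted p = 0.000129). P2ry10, a lysophosphatidylserine receptor, was at 686, 269 and 746 CPM against 254, 157 and 157 CPM, lower by 3.00-fold (log2 fold change -1.58 ± 0.36). Here vehicle replicate 2 came within reach of AOA replicate 1 without overlapping it. S1pr1, the sphingosine 1-phosphate receptor by which T cells leave lymph nodes, was at 510, 245 and 575 CPM against 224, 189 and 237 CPM. Its log2 fold change was -1.03 ± 0.28 (adjusted p = 0.0126), and without AOA replicate 1 the adjusted p became 0.0543 at a log2 fold change of -1.05. S1pr2, which restrains migration toward the same lipid, was at 31.0, 25.2 and 27.7 CPM against 10.2, 13.6 and 10.4 CPM, a clear separation with a log2 fold change of -1.29 ± 0.18. Smaller declines were called for the lysophosphatidic acid receptors Lpar2 (-0.91 ± 0.17) and Lpar6 (-0.73 ± 0.20) and for the lysophosphatidylserine receptor Gpr174 (-0.74 ± 0.18). Without vehicle replicate 1, Lpar6 was no longer called (log2 fold change -0.65, adjusted p = 0.0530). The 4 receptors not called were S1pr4 at -0.37 ± 0.16, the lysophosphatidylinositol receptor Gpr55 at -0.03 ± 0.22, Lpar5 at 0.33 ± 0.28 and Gpr34 at 0.43 ± 0.31. Without vehicle replicate 2, S1pr4 was called lower (log2 fold change -0.49) and Lpar5 higher (0.69).

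Gpr183 (EBI2), the receptor for oxysterols that positions activated lymphocytes in lymphoid tissue, was lower in every AOA library. It was at 64.7, 58.9 and 54.8 CPM with vehicle and at 11.3, 12.4 and 9.63 CPM with AOA. The lowest vehicle library was thus well above the highest AOA library, and the log2 fold change was -2.42 ± 0.15 (5.36-fold lower, adjusted p = 1.4e-05).

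Among receptors for eicosanoids, lipids made from arachidonic acid, 3 were lower, 1 was higher and 1 was not called, where 26.8% of all tested genes were lower and 26.2% higher. Ltb4r1 (BLT1), through which leukotriene B4 attracts effector T cells, was at 43.1, 45.4 and 40.7 CPM with vehicle and at 0.644, 1.11 and 0.555 CPM with AOA. This 55.9-fold decrease (log2 fold change -5.80 ± 0.25, adjusted p = 1.12e-05) took a gene that varied by a few CPM in the vehicle group to about 1 CPM or below in every AOA library. The prostaglandin E2 receptors did not move together. Ptger2 (EP2) fell from 28.9, 20.4 and 22.4 CPM to 4.83, 5.81 and 4.69 CPM, with a log2 fold change of -2.22 ± 0.20. Ptger4 (EP4), which like EP2 raises cAMP, was at 35.8, 35.3 and 26.8 CPM against 48.5, 72.5 and 58.1 CPM, and rose 1.83-fold (0.87 ± 0.18, adjusted p = 0.0037). The order of these receptors within a library was therefore kept, with Ptger4 above Ptger2, but the distance between them widened: per kilobase of gene length, Ptger4 was at 9.81 ± 1.52 CPM and Ptger2 at 6.34 ± 1.18 CPM (SD, n = 3) with vehicle, and at 18 ± 3.63 and 1.36 ± 0.163 CPM with AOA. Ptger1 (EP1) was called lower at -0.50 ± 0.14, a call lost without vehicle replicate 1 (-0.38, adjusted p = 0.0869). Ptger3 (EP3) was not called, at 0.62 ± 0.37.

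Adora2a, the adenosine receptor that dampens T cell responses through cAMP, was at 120, 70.2 and 89.5 CPM with vehicle and at 11.4, 18.6 and 13.6 CPM with AOA. It was lower by 6.41-fold (log2 fold change -2.68 ± 0.24, adjusted p = 4.78e-05), with no overlap. Adora3, at 2.08 ± 1.22 against 1.54 ± 0.0900 CPM (SD, n = 3), was not called. Of the P2Y receptors for nucleotides, P2ry14, the UDP-glucose receptor, was the most abundant per length and was not called (0.08 ± 0.26). The receptors for ADP were all low and are named after their values were seen. P2ry1 was at 0.238, 0.507 and 0.380 CPM with vehicle and at 3.54, 3.91 and 4.24 CPM with AOA, the largest rise of any member (3.33 ± 0.36, adjusted p = 0.000112). P2ry12 went the other way, from 3.17, 3.11 and 2.23 CPM to 0.184, 0.211 and 0.202 CPM (-3.78 ± 0.38). P2ry13 was at 1.11, 7.80 and 2.06 CPM against 0.184, 0.211 and 0.0504 CPM, with a log2 fold change of -4.56 ± 0.85 that became -3.36 without vehicle replicate 2, its highest library. These 3 receptors answer the same nucleotide through different G proteins, P2ry1 through Gq and the other two through Gi.

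Among receptors that sense protons, Gpr65 was at 48.1 ± 8.20 CPM against 53.6 ± 6.17 CPM (SD, n = 3) and was not called. Hrh2, a receptor for histamine, was at 32.9, 38.7 and 33.7 CPM against 9.88, 14.6 and 8.37 CPM. Its groups were well apart, with a log2 fold change of -1.68 ± 0.21.

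Protease-activated receptors, which are switched on when thrombin or trypsin-like enzymes cut their outer end, included no lowered gene. F2r (PAR1) was the most abundant per gene length. It was at 221, 363 and 219 CPM with vehicle and at 275, 343 and 309 CPM with AOA, and was not called (0.21 ± 0.21). F2rl1 (PAR2) and F2rl2 (PAR3) were not called either, at -0.04 ± 0.20 and 0.04 ± 0.37. Without vehicle replicate 2, F2r and F2rl2 were called higher, at log2 fold changes of 0.53 and 0.71. F2rl3 (PAR4) alone was called with all libraries, at 5.63, 7.80 and 6.24 CPM against 22.5, 23.0 and 21.4 CPM. Its rise of 3.39-fold was far beyond the spread of either group (1.76 ± 0.18, adjusted p = 9.01e-05).

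Adhesion receptors carry long outer domains that touch other cells and matrix. Adgre5 (CD97), a leukocyte activation marker, was at 607, 491 and 574 CPM with vehicle and at 155, 226 and 204 CPM with AOA (-1.52 ± 0.18, adjusted p = 0.00018). Adgrl1 (latrophilin 1) moved the opposite way, from 31.9, 32.4 and 24.9 CPM to 50.2, 69.2 and 68.9 CPM (1.08 ± 0.17). The vehicle and AOA libraries of both genes were separate. Adgra3 was at 2.38, 3.42 and 1.85 CPM against 3.68, 9.99 and 4.14 CPM, and its rise rested largely on AOA replicate 2. With that library left out its log2 fold change of 1.22 ± 0.43 dropped to 0.62 (adjusted p = 0.192). It was also not called without vehicle replicate 1 (1.19, adjusted p = 0.0936) or vehicle replicate 3 (1.04, adjusted p = 0.107), or by limma-voom (1.09). Adgrg1 (GPR56), a receptor known from cytotoxic lymphocytes, was low and is named after its values were seen, at 2.54, 3.74 and 2.61 CPM against 0.230, 0.317 and 0.202 CPM (-3.54 ± 0.39). Adgrg5, at 200 ± 39.4 against 171 ± 13.9 CPM (SD, n = 3), and Adgrg3 and Adgrd1, both low, were not called. Without vehicle replicate 2, Adgrg5 was called lower (-0.35) and Adgrg3 higher (1.02).

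Among receptors whose ligand is unknown or debated, 5 of 10 were lower and none was called higher, a share called near the 53.0% of all tested genes. Gpr141 had the second largest decrease of any receptor. It was at 18.1, 63.3 and 15.7 CPM with vehicle and at 0.782, 0.846 and 0.908 CPM with AOA (-5.25 ± 0.60, adjusted p = 0.000153). Vehicle replicate 2 was far above the rest of its group, and without it the log2 fold change was -4.27. Gpr160 was at 22.3, 26.0 and 17.5 CPM against 6.53, 7.88 and 6.15 CPM (-1.68 ± 0.20), and Gpr18 was at 100, 61.8 and 117 CPM against 37.1, 47.6 and 44.3 CPM (-1.11 ± 0.22), with groups that did not overlap in either case. Gpr162 was low and is named after its values were seen, at 2.62 ± 0.965 CPM against 0.316 ± 0.0485 CPM (SD, n = 3), with a log2 fold change of -3.02 ± 0.42. Gpr171 was the abundant exception, at 165, 87.7 and 195 CPM against 188, 130 and 123 CPM, with a log2 fold change of -0.02 ± 0.28. Gpr146 was not called at -0.33 ± 0.31, but was called lower without vehicle replicate 2 (-0.62). Gpr15, which guides T cells to the colon, had a single high AOA library, at 3.72, 21.0 and 4.39 CPM against 5.71, 9.70 and 13.2 CPM with vehicle, and was called lower only when AOA replicate 2 was left out (-1.24, adjusted p = 0.0213).

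Some Gpr names belong to membrane proteins of the Golgi and lysosome rather than to classical receptors. Gpr107 (-1.0 ± 0.14), Gpr108 (-0.49 ± 0.12) and Gpr137 (-0.78 ± 0.21) were called lower. Gpr137 was not called without vehicle replicate 1 (-0.70, adjusted p = 0.0502) or AOA replicate 3 (-0.69, adjusted p = 0.0545). Gpr155, a low gene named after its values were seen, was higher at 4.55 ± 0.983 against 1.59 ± 0.488 CPM (SD, n = 3). Gpr89, a Golgi anion channel, and Gpr180 were not called, at 0.11 ± 0.16 and 0.05 ± 0.20.

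RGS genes of the R4 family, short proteins built around the domain that speeds GTP hydrolysis, were all called: 5 lower and 1 higher. Over all tested genes 53.0% were called, 26.8% lower and 26.2% higher. Rgs1, a brake on chemokine signalling in lymphocytes, was at 33.7, 52.8 and 36.3 CPM with vehicle and at 7.59, 4.55 and 5.04 CPM with AOA. This was a 7.13-fold decrease with no overlap (-2.83 ± 0.25, adjusted p = 4.47e-05). Rgs16, which is induced by T cell activation, was at 5.32, 33.8 and 5.97 CPM against 0.368, 0.846 and 0.555 CPM. Its log2 fold change was -4.67 ± 0.80 and became -3.23 without vehicle replicate 2, where it was highest. Rgs8 was at 2.70, 11 and 1.74 CPM against 0, 0 and 0.0504 CPM, or 240 reads in the vehicle libraries against 1 in the AOA libraries. Corrected for library size this was a ratio of 310, with a 95% interval of 55.2 to 12306 that covers counting error only. Its fitted log2 fold change of -7.78 ± 1.14 depends on the prior count, and was -6.52 without vehicle replicate 2 and -9.5 without AOA replicate 3. Rgs2, which acts mainly on Gq, fell from 7.62, 5.20 and 10.8 CPM to 2.80, 1.64 and 1.71 CPM (-1.93 ± 0.35). Rgs3 had a tight decrease from 207, 177 and 191 CPM to 55.9, 64.6 and 58.9 CPM (-1.68 ± 0.13, adjusted p = 2.39e-05). Rgs18 was the exception in direction, at 0.317, 2.60 and 1.19 CPM against 10.7, 4.28 and 7.31 CPM. The groups did not overlap, and the log2 fold change of 2.41 ± 0.57 became 3.22 without vehicle replicate 2.

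**Figure D2:**
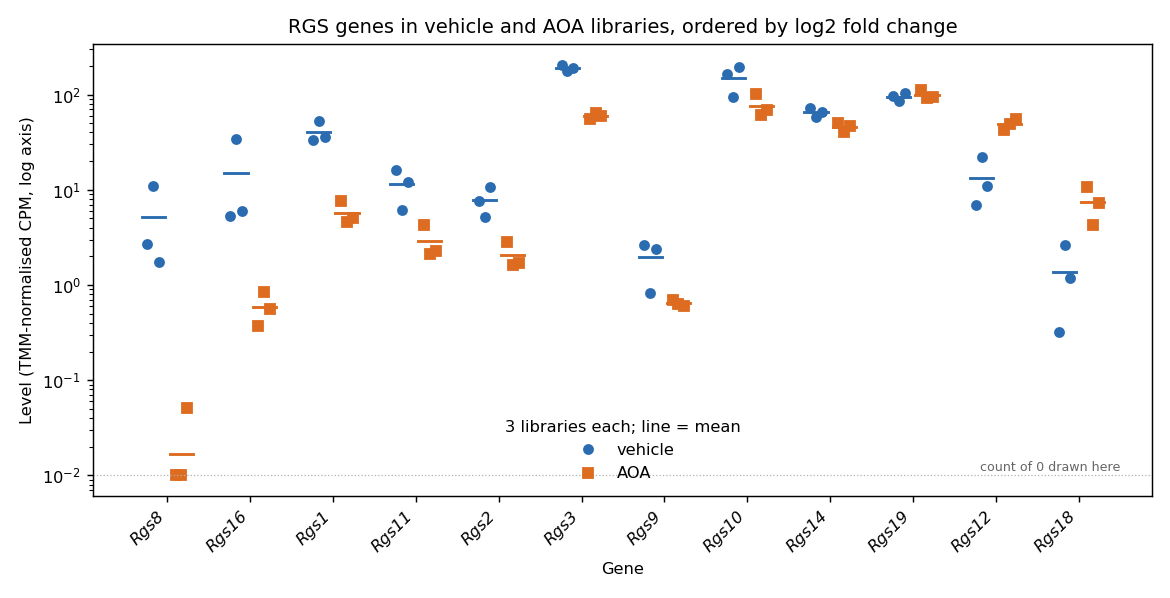
Level of the 12 RGS genes in each of the 3 vehicle (circles) and 3 AOA (squares) libraries, in TMM-normalised CPM on a log axis, with lines for group means and counts of 0 drawn on the dotted line. Squares lie below circles for Rgs8, Rgs16, Rgs1, Rgs11, Rgs2, Rgs3, Rgs9 and Rgs14 and above them for Rgs12 and Rgs18, while Rgs10 and Rgs19 overlap.

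The R7 family works as partner of the G protein subunit Gnb5, and its genes Rgs11 and Rgs9 were both lower. Rgs11 was at 16.3, 6.15 and 12.2 CPM against 4.23, 2.11 and 2.27 CPM (-2.0 ± 0.40), without overlap. Rgs9 was near the limit of detection at 1.94 ± 0.977 against 0.643 ± 0.0428 CPM (SD, n = 3), was named after its values were seen, and was no longer called without vehicle replicate 1 (-1.30), vehicle replicate 3 (-1.36), AOA replicate 1 (-1.63) or AOA replicate 3 (-1.53). The R12 family was divided. Rgs12, a scaffold that also binds Ras, rose from 6.90, 22.2 and 11 CPM to 42.6, 48.6 and 55.6 CPM (1.87 ± 0.35), and by 2.47 on the log2 scale without vehicle replicate 2. Its relatives fell. Rgs10 was at 164, 94.1 and 193 CPM against 100, 60.7 and 69.3 CPM, the only called member whose libraries overlapped, with a log2 fold change of -0.97 ± 0.27. Its call was lost without vehicle replicate 3 (-0.72), AOA replicate 2 (-0.82) or AOA replicate 3 (-0.90). Rgs14 was lower at -0.50 ± 0.14, a call lost without vehicle replicate 1 (-0.41), vehicle replicate 3 (-0.47) or AOA replicate 2 (-0.41). Rgs19 (GAIP), of the RZ family, was at 96.7, 84.8 and 103 CPM against 111, 91.3 and 93.6 CPM and was not called.

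Levels of different genes are compared per kilobase of the deposited gene length. With vehicle the order began with P2ry10 at 201 ± 91.8 CPM per kilobase, Rgs10 at 172 ± 57.9, Adgre5 at 171 ± 18.5, Gpr132 at 154 ± 52.6 and S1pr1 at 146 ± 57.7 (SD, n = 3). These 5 were not separated from each other by more than their spread. F2r followed at 81.2 ± 25.1 CPM per kilobase. With AOA, F2r came first at 93.7 ± 10.2 CPM per kilobase, followed by Rgs10 at 87.7 ± 23.8, S1pr1 at 71.5 ± 8.15, P2ry10 at 66.9 ± 19.7 and Gpr171 at 66 ± 16, again with neighbours closer than their spread. Rgs10, S1pr1 and P2ry10 were thus among the first 5 in both groups, while the uncalled F2r moved from place 6 to 1 and Gpr171 from 10 to 5. Gpr132 moved from place 4 to 11 and Adora2a from 14 to 35. The steepest descent among the upper 20 was that of Ltb4r1, from place 15 to 55. F2rl3 climbed from place 46 to 23 and Rgs12 from 50 to 26, while P2ry1, last of the 66 with vehicle, reached place 51.

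**Figure D3:**
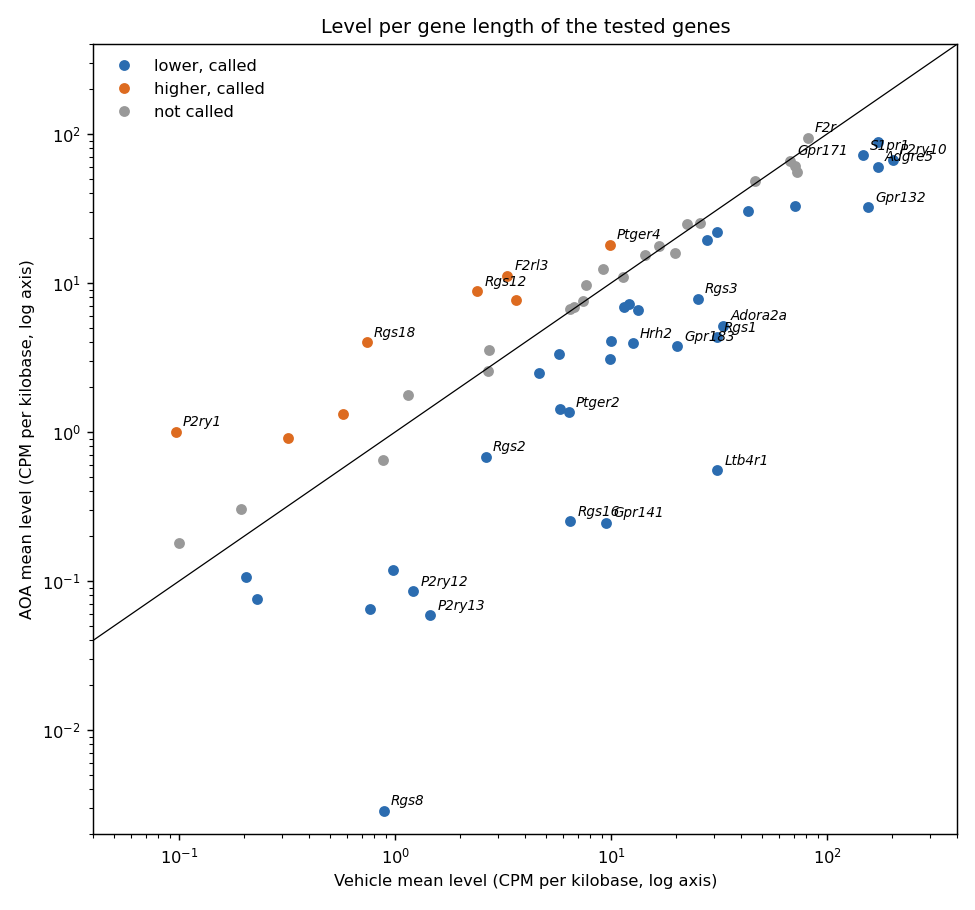
Mean level of 64 of the 66 tested genes in vehicle (x axis) and AOA (y axis) libraries, in CPM per kilobase on log axes, with points coloured by call and a line of equal level. P2ry10, Adgre5, Gpr132 and S1pr1 sit at the right end below the line, F2r and Gpr171 lie on or near it, and Ltb4r1 falls from 30.9 to 0.553.

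Several members are neighbours in the genome, and neighbours did not always move together. Within 200 kb of each other lay 20 members in 7 clusters (GRCm38.p6). Rgs8 (chr1:153652959-153697669) and Rgs16 (chr1:153740353-153745468), 42.7 kb apart on the plus strand, were both lower. Elsewhere on the same chromosome Rgs2 and Rgs1 lay 240.5 kb apart and were both lower, while Rgs18, 503.6 kb beyond Rgs1, was higher. Gpr18 and Gpr183 on chromosome 14 were both lower, as were P2ry10 and Gpr174 on chromosome X. On chromosome 3 the row Gpr171, P2ry14, P2ry13 and P2ry12 was split, since the first pair was not called and the last pair was lower by 23.7-fold for P2ry13 and 13.8-fold for P2ry12. Adgrg1 was lower between Adgrg5 and Adgrg3, neither of them called, and Adgre5 was lower 158.8 kb from Adgrl1, which was higher. F2rl1, F2r and F2rl2 on chromosome 13 were all not called, and F2rl3, the gene of the family that rose, lies apart from them on chromosome 8.

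**Figure D4:**
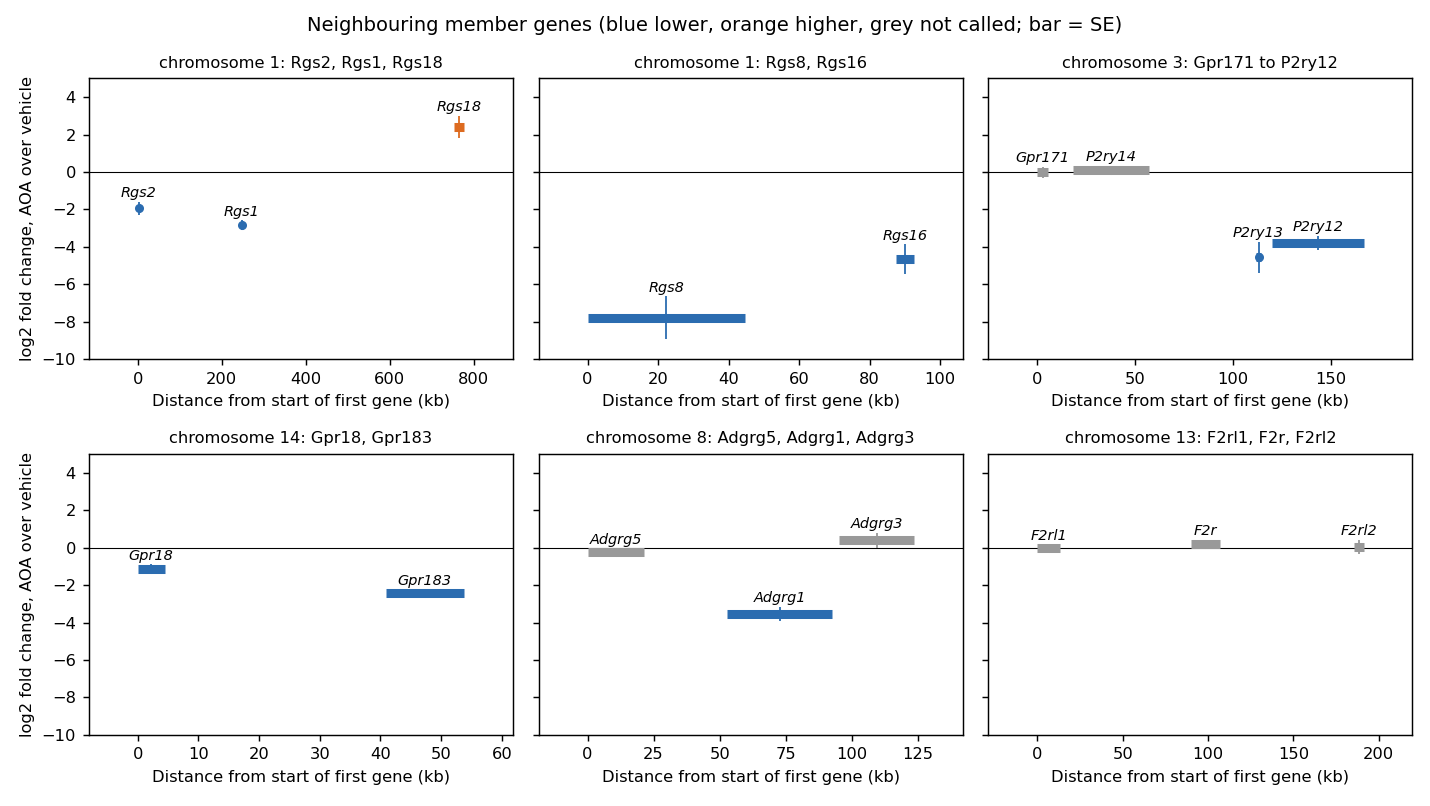
Log2 fold change of AOA over vehicle (y axis, thin bars for the standard error) against distance in kb from the start of the first gene (x axis) for 6 groups of neighbouring members, each thick bar spanning a gene. Rgs2 and Rgs1 lie below zero and Rgs18 above it, Rgs8 and Rgs16 both lie below, and P2ry13 and P2ry12 lie below zero beside Gpr171 and P2ry14 at zero.

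In 17 members the span of the gene, introns included, overlaps that of another counted gene. Overlap of exons was not examined, and no source used here gives the strand setting of the counting. Whether reads of the partner were counted for these members was not tested. Gpr171, P2ry14, P2ry13 and P2ry12 lie on the opposite strand inside Med12l, which had 896, 571 and 886 reads with vehicle and 86, 64 and 65 with AOA. Gpr18 and Gpr183 lie inside Ubac2, with 3151, 2564 and 4276 reads against 2175, 2166 and 1968. Adgre5 overlaps in part with Ddx39a, whose reads went the other way, 546, 1059 and 804 against 5392, 3741 and 3761. The other overlapping members were Gpr108, Gpr137, Ptger1, Lpar6, F2rl2, Gpr34, Gpr146, Gpr19 and Gpr89.

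Vehicle replicate 2 differed from the other vehicle libraries in many of these genes, as in genes at large. Of the 66, it was the highest vehicle library in 30 and the lowest in 28, and it was the highest for 42.2% of all tested genes. It was at least 2-fold above the mean of the other two in 9 genes and at least 2-fold below in 7. Rgs16 was 5.99-fold, Rgs8 4.97-fold, P2ry13 4.91-fold and Gpr141 3.75-fold above that mean, all of them genes that were lower with AOA. Rgs18 and Rgs12, which were higher with AOA, were also raised in this library, by 3.44-fold for Rgs18. P2ry10 was 2.66-fold and S1pr1 2.21-fold below. NK markers were likewise highest there, with Klrb1c at 41.7, 111 and 20.1 CPM in vehicle replicates 1, 2 and 3. The part of NK cells in these genes was not tested. Among the AOA libraries, 2 genes, Adgra3 and Gpr15, were at least 2-fold above the rest in AOA replicate 2. In AOA replicate 3 this held for Adgrd1 and for Rgs8, the latter with 1 read. Over all genes AOA replicate 1 also differed from its group, with a chi-square per gene of 72.3 and 65.7 against AOA replicates 2 and 3, which differed by 10.7 from each other. The corresponding values of vehicle replicate 2 were 55.9 and 60.3, against 10.2 between vehicle replicates 1 and 3.

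**Figure D5:**
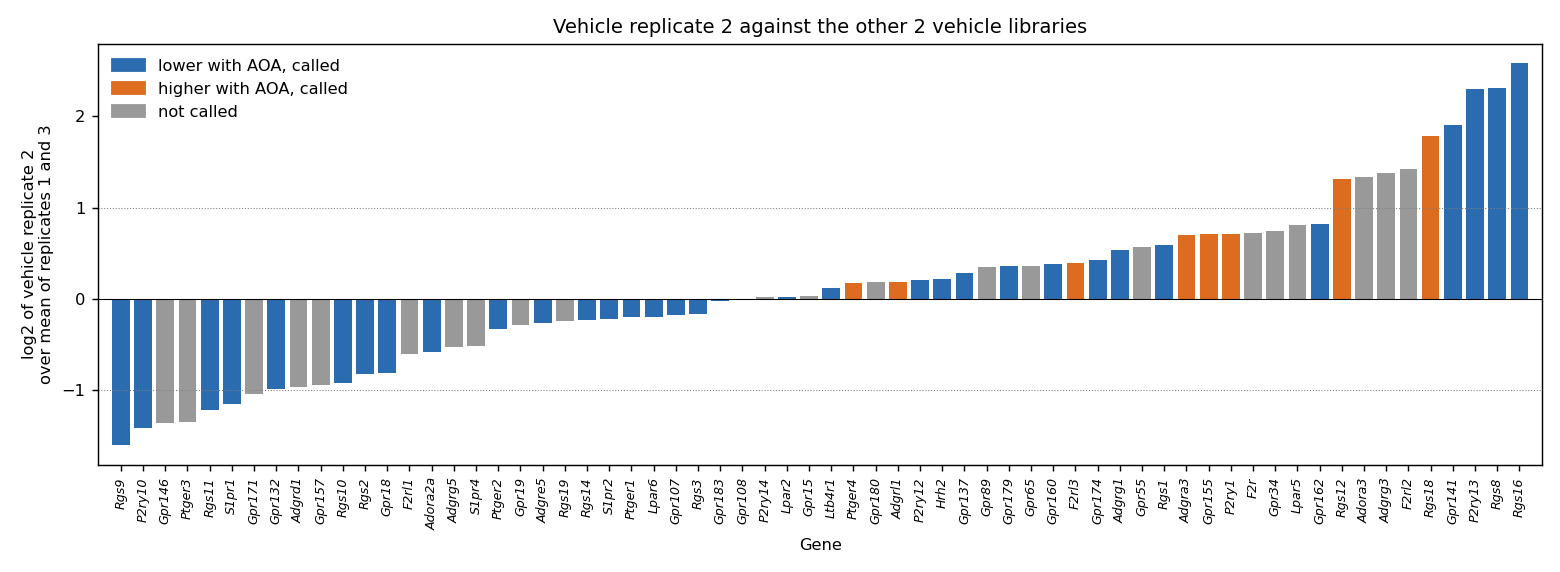
Log2 ratio of vehicle replicate 2 to the mean of vehicle replicates 1 and 3 (y axis, bars from zero) for 64 of the 66 tested genes (x axis, ordered by that ratio), coloured by the call with AOA, with dotted lines at 2-fold. Bars pass the upper line for 9 genes, ending with Rgs16, and the lower line for 7, beginning with Rgs9.

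The proteins these receptors work with were described from lists chosen with earlier results known. The 19 tested G protein subunits had a median log2 fold change of -0.14, with 3 called higher and 6 lower. Beside this and the counts that follow stand the shares over all tested genes, 26.2% called higher and 26.8% lower. Among alpha subunits, Gna15 (-1.57 ± 0.16), which couples to many receptors, and Gna13 (-0.93 ± 0.21), the partner of S1pr2 in restraining migration, were lower and Gna12 was higher (1.24 ± 0.27). Among the subunits bound to them, Gng2 was lower (-1.05 ± 0.13), Gng12 higher (1.17 ± 0.29) and Gnb1 higher (0.41 ± 0.13), a call lost with the mouse as replicate block. The main subunits that lower and raise cAMP were not called, with Gnai2 at 0.24 ± 0.15 and Gnas at -0.05 ± 0.17. Of 6 receptor kinases and arrestins 4 were lower and none was higher, with a median of -0.83. Arrb1, beta-arrestin 1, was at 164, 63.8 and 159 CPM against 43.1, 54.4 and 53.6 CPM (-1.36 ± 0.31), and the kinases Grk2 (-0.73 ± 0.16) and Grk5 (-0.93 ± 0.20) were lower, while Grk6 and Arrb2 were not called. Of 10 enzymes and transporters of ligands, 2 were higher and 3 lower. Those of adenosine were among them: Entpd1 (CD39), which breaks down extracellular ATP, was at 53.8, 79.2 and 61.7 CPM against 17.1, 23.1 and 18.1 CPM (-1.74 ± 0.19), Ada, which degrades adenosine, was at 9.52, 8.75 and 13.7 CPM against 34.8, 30.0 and 34.2 CPM (1.62 ± 0.20), and Nt5e (CD73), which forms it, was not called. Sgpl1, which degrades sphingosine 1-phosphate, was lower (-0.55 ± 0.13). Of 9 further partners of receptors and G proteins 1 was higher, Gpsm2 (1.52 ± 0.23), and 3 were lower: Ramp3 (-2.26 ± 0.50), Gpsm3 (-0.96 ± 0.14) and Ric8a (-0.44 ± 0.14). Klf2, the factor that maintains S1pr1, and Cd69, which draws S1pr1 from the surface, were not called, at 0.43 ± 0.39 and 0.40 ± 0.28.

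At the threshold, Adgra3 (adjusted p = 0.0383) and Gpr179 (adjusted p = 0.0333) were just inside and S1pr4 (adjusted p = 0.0807) just outside. Gpr179 was at 1.89 ± 0.290 against 0.986 ± 0.130 CPM (SD, n = 3) and was not called with any single library left out, its log2 fold change then lying between -1.02 and -0.77, nor by DESeq2, nor with the mouse as replicate block (adjusted p = 0.0505). It was the only member whose call changed with that block. Of the 43 calls, 34 held under every alternative test, scaling and low-count filter, with the block and with each library left out.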

How the data were processed

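RNA of 3 vehicle-treated and 3 AOA-treated CD8+ T cell cultures was prepared with a stranded messenger RNA kit and sequenced as paired-end reads. The authors deposited raw counts of uniquely mapped reads per gene, with gene lengths. The submitters' processing notes name mm10, bcl2fastq, STAR, featureCounts and DESeq2. Not given in the sources used here were the annotation, the strand setting of the counting and any filter on listed genes. Groups were taken from the sample labels. Counts were filtered with filterByExpr (minimum count 10), normalised by TMM and compared across all 11759 tested genes with the robust quasi-likelihood test of edgeR 4.0.16 in R 4.3.3, adjusting p by Benjamini-Hochberg and calling at 0.05. Alternatives were DESeq2 1.42.0, limma-voom (limma 3.58.1), other scalings and filters, the mouse as replicate block, each library left out, an added minimum of 1 on the log2 fold change and, added after the data were seen, libraries that do not overlap. The labels give both groups the same donor numbers, and deviations from the group means correlated within mice with r of 0.0868, 0.189 and 0.194 across genes, which are not independent replicates. The chi-square per gene between replicates was 10.2 to 72.3, above sampling noise. With 3 libraries per group an exact permutation test cannot give a p under 0.1. The fit was tested on simulated data. Intervals of count ratios are exact binomial and cover counting error only.

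The members and lists were chosen with earlier results of these data known. Named are called members whose higher group averaged 5 CPM or more, the most abundant member of each role per length, uncalled members with at least 10 CPM and those next to the threshold, with library values for the 25 largest changes. Of each partner list, up to 3 called genes per direction with at least 5 CPM are named. Further genes named after their values were seen are marked as such or are uncalled. Some members are counted but not reported here by name. Sequences and positions are from RefSeq, GRCm38.p6 (mm10 is another name of GRCm38).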

Additional observations from a re-analysis of the deposited data

How the results depend on the processing

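The number of members called changed was 43 and ranged from 36 to 49 when each library was left out. Those called lower, 35, ranged from 29 to 37 and those called higher, 8, from 7 to 12. Receptor genes called higher, 6, ranged from 5 to 10 and those called lower, 26, from 22 to 28. RGS genes called lower, 9, ranged from 6 to 9, and those called higher stayed at 2. The highest value of receptor genes called higher, 10, came without vehicle replicate 2, which added 7 calls and lost 1. With the mouse as replicate block 42 members were called, 8 higher and 34 lower. Other tests, scalings and filters gave 42 to 44. With a log2 fold change of at least 1 there were 33.

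Changes of sign occurred for uncalled genes. With the replicate block the log2 fold change of Gpr55 became 0.000595, that of Gpr171 0.0302 and that of Gpr15 -0.34. Gpr171 was also at 0.0286 by limma-voom, at 0.000222 with total counts only and at 0.0108 with no low-count filter. With each library left out, Gpr180 ranged from -0.13 to 0.18, Rgs19 from -0.0369 to 0.14, Gpr55 from -0.22 to 0.22, P2ry14 from -0.20 to 0.33, Gpr171 from -0.26 to 0.25, F2rl1 from -0.18 to 0.10, F2rl2 from -0.23 to 0.71, Adora3 from -0.65 to 0.19, Gpr15 from -1.24 to 0.40 and Gpr19 from -0.16 to 0.03. The cause was not tested. Low counts limit Rgs8, Rgs9, Gpr179 and the ADP receptors, and intervals given for ratios of counts do not cover the spread between cultures.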

Other observations

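Receptors known to raise cAMP through Gs were grouped after their values had been seen, so the grouping supports nothing. Adora2a, Ptger2 and Hrh2 were lower, Ptger4 was higher, and Gpr65 was not called. Their levels with vehicle and with AOA were 93.1 ± 25 and 14.5 ± 3.68 CPM for Adora2a, 23.9 ± 4.45 and 5.11 ± 0.613 CPM for Ptger2, 35.1 ± 3.11 and 11 ± 3.27 CPM for Hrh2, and 32.6 ± 5.05 and 59.7 ± 12.1 CPM for Ptger4 (SD, n = 3). Ptges, which makes prostaglandin E2, was low and likewise noted after its values were seen, at 3.65, 1.78 and 3.58 CPM with vehicle and at 0.0919, 0 and 0.101 CPM with AOA. Enpp2, which makes lysophosphatidic acid, was also low and noted after its values were seen. It was higher with AOA, at 0.714, 1.14 and 0.760 CPM with vehicle against 3.03, 3.70 and 3.28 CPM.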
